A study of Mus musculus with 27 samples.

Results

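The 38 genes whose transcription follows neuronal activity were examined in the hippocampi and cortices of mice infused with α-IgLON5#1, an affinity-purified pool of autoantibodies against the neuronal surface protein IgLON5. They were taken by name from a list of immediate-early and activity-regulated genes, by a rule that uses no measured value, and all 38 were found among the 55487 rows of the deposited count table. The study asked what infusion of patient autoantibodies into the cerebral ventricle does to the brain of wild-type mice. All animals were male C57Bl/6J mice aged 8 weeks, infused for 14 days at 0.25 µl/h into the right lateral ventricle through an osmotic pump. PBS mice received buffer alone, pCtrl mice received a control human IgG (named a monoclonal without reactivity in the labels and serum IgG of healthy people in the study's methods), and α-IgLON5#1 mice received the autoantibodies of 1 patient. Stranded mRNA libraries came from tissue opposite the infused side, from 5 PBS, 5 pCtrl and 4 α-IgLON5#1 cortices and from 5 PBS, 4 pCtrl and 4 α-IgLON5#1 hippocampi of 14 mice, of which 13 gave both tissues.

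When a neuron fires, calcium entering through NMDA receptors and voltage-gated channels activates CaM kinases and the MAP kinase cascade, and these act on transcription factors that wait at promoters, such as CREB and SRF. The immediate-early genes are switched on within minutes without new protein synthesis, and many encode transcription factors (Fos, Egr, Npas4 and Nr4a proteins) that drive a later set of genes acting at synapses. Their transcripts are short-lived, so that in cortex and hippocampus they are widely used as a readout of recent activity.

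CREB binds the cAMP response element (CRE), the 8 letters TGACGTCA, or its half-site of 5 letters, TGACG, on either strand. Promoter windows from RefSeq (GRCm38.p6) matched 28 of the 38 members, and the first window listed for each gene was searched over the 250 bases before its start. The half-site was present in 16 of the 28 members, 57.1%, beside 17.9% of the 27018 genes with a window. The full CRE, which contains the half-site on both strands, was present in Arl4d, Btg2 and Dusp1, 3 of 28 members (10.7%) beside 1.62% of all. The Egr motif GCGNGGGCG was present in 7 members (25%; 4.65% of all), the AP-1 motif TGANTCA in 0 (6.87% of all) and the CArG box, at which SRF binds, in 1, Dusp5 (3.57%; 1.4% of all). These are matches of letters on either strand, not sites shown to be bound. The 4 windows printed here each had a single listed start and belong to Fos, Junb, Arl4d and Btg2. Between cortices the last 3 had a Pearson r with Fos of 0.977, 0.933 and 0.796, none of which passed adjustment over all genes. Jun and Gadd45b, with r of 0.906 and 0.902, held 0 half-sites, and a link between the motif and the relation to Fos was not tested. Capitals mark each half-site on either strand, which includes the full CRE: Fos lies on the + strand at chr12:85473640-85473889, Junb on the - strand at chr8:84978749-84978998, Arl4d on the + strand at chr11:101665291-101665540 and Btg2 on the - strand at chr1:134079156-134079405.
Fos: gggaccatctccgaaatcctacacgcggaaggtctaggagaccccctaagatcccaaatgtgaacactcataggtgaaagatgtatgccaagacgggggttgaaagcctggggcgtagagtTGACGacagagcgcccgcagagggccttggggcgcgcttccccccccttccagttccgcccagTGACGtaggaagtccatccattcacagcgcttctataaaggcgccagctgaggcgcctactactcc
Junb: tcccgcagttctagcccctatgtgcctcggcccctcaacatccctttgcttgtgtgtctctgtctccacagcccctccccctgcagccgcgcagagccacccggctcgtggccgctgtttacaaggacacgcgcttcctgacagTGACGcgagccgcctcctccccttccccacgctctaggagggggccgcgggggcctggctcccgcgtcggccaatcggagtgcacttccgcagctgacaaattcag
Arl4d: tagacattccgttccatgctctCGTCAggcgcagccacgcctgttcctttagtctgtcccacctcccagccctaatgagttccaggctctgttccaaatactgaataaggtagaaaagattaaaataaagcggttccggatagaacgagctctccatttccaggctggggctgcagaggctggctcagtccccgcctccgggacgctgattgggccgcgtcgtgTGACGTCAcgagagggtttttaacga
Btg2: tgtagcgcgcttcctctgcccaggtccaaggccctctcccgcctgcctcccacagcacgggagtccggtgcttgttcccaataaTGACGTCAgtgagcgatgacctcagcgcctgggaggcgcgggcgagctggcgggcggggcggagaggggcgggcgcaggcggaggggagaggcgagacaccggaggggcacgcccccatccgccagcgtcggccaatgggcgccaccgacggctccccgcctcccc
Counted from the start of the gene, Fos held 2 half-sites and Junb held 1, at position -106. The full CRE began at position -26 in Arl4d and at position -166 in Btg2.

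The libraries held 19385642 to 58550621 counts, and every member had at least 10 counts in every library, the lowest being 15 counts of Maff. Although the labels name neurons as the cell type, these were pieces of tissue: summed markers of astrocytes (4070 to 6340 CPM, counts scaled to the library total) and oligodendrocytes (1490 to 3990 CPM) stood beside those of neurons (6370 to 9210 CPM), so that fewer cells of a type and less RNA per cell cannot be told apart. A tissue score, the mean log2 CPM of the 100 genes highest in PBS cortex against hippocampus minus that of the 100 lowest and without the members and pathway genes, lay between 1.66 and 2.47 in all cortices. It lay between -1.93 and -0.85 in 11 of the 13 hippocampi, but at -0.000483 in the hippocampus of pCtrl mouse 10 and at 0.76 in that of pCtrl mouse 37. The hippocampus of PBS mouse 74 held 3890 CPM of pituitary hormone transcripts, beside 1.92 to 220 CPM in the other hippocampi.

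In the PBS mice most members were lower in the hippocampus than in the cortex. Of 38 members, 25 were lower and 1, Jun, was higher at an adjusted p under 0.05 (edgeR quasi-likelihood test), where 14.1% of the 20271 tested genes were lower and 26.7% differed in either direction. The median log2 fold change of the members was -0.94, beside 0.008 over all tested genes. Of 8 general neuron markers 5 were called lower and 1 higher (median -0.28), and their sum was 6730 to 7610 CPM in the hippocampi and 7370 to 9210 CPM in the cortices of PBS mice. All 6 cortical neuron markers were called lower (median -1.59) and all 5 dentate granule cell markers higher (median 4.29), and the part of the tissues' neuron types in the members' values was not tested. All 4 Egr genes were lower, as were 5 of 7 further transcription regulators, 5 of 6 synaptic and secreted effectors, 4 of 7 kinase pathway feedback genes, 2 of 4 stress and trafficking genes, 2 of 4 in the group of Npas4 and the Nr4a receptors, and 3 of 6 AP-1 and small Maf genes. The members not called either way were Fosl2 and Maff (AP-1 and small Maf factors), the nuclear receptors Nr4a2 and Nr4a3, the zinc-finger factor Klf4, Btg2, the MAP kinase phosphatases Dusp4 and Dusp5, the salt-inducible kinase Sik1, the stress sensor Gadd45g, the ADP-ribosyltransferase Tiparp, and Bdnf, with log2 fold changes between -0.75 (Klf4) and 0.10 (Bdnf). Since 5 of the mice gave both tissues, the comparison was repeated with the mouse as a block in a paired fit, which called 30 members, 29 lower and 1 higher, beside 29.2% of all genes. DESeq2 called 26. Leaving out 1 library at a time gave 24 to 27, and without the hippocampus of PBS mouse 74 it was 24. The calls of Inhba and Ier2 were lost without any of 6 and 5 libraries in turn, and those of Csrnp1 and Pim1 without 1.

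**Figure D1:**
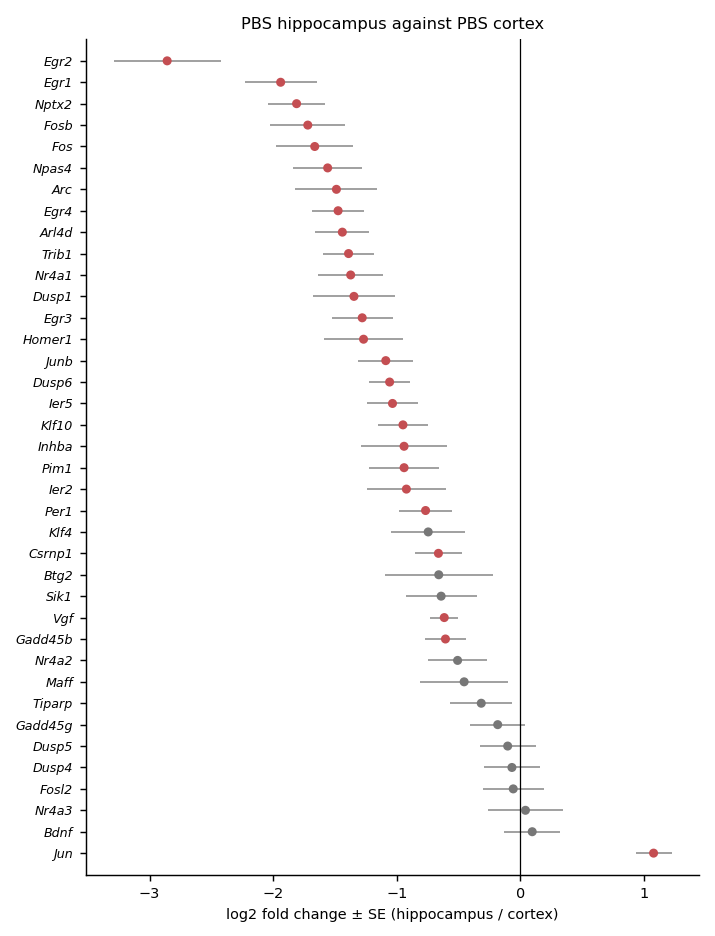
Log2 fold change (x axis, points, with SE as lines) of each of the 38 members (y axis) in PBS hippocampi against PBS cortices, 5 of each, with red points for an adjusted p under 0.05. Egr2 lay lowest at -2.86 and Jun, alone among the red points, lay above 0, at 1.08.

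Among the called members not described singly further on, Egr3 and Egr4 encode factors of the Egr family (log2 fold changes of -1.28 and -1.48), and Junb an AP-1 subunit that dampens Jun (-1.09). Jun, the subunit that was higher in the hippocampus (log2 fold change 1.08 ± 0.145 SE, edgeR adjusted p = 2.57e-06), had no overlap between the tissues of PBS mice, as 10 members that were lower had none; of all tested genes, 8.59% and 9.17% lay wholly above and wholly below in the hippocampus. Among further transcription regulators, Klf10 (-0.95), Csrnp1 (-0.66), Ier2 (-0.92), Ier5 (-1.03) and the clock component Per1 (-0.77) were lower. Dusp6, a phosphatase of ERK, and Trib1, a pseudokinase, had log2 fold changes of -1.06 and -1.39, and Gadd45b, a stress sensor, and Arl4d had -0.61 and -1.44. Vgf and Inhba, which encode secreted proteins, had -0.62 and -0.94. Csrnp1 overlaps the microglial gene Cx3cr1 and Homer1 the genes Gm47075 and Gm47088 on the same strand, and Jun, Junb, Dusp5, Tiparp, Bdnf and Inhba overlap other genes on the opposite strand, while the strand setting of the counting was not given, so that their counts may hold reads of those genes.

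Levels of different genes were set side by side per kilobase of exon. In PBS cortices the highest were Egr1 at 136, Arc at 127, Vgf at 104 and Junb at 72.1 CPM per kilobase, and the lowest Inhba at 1.75, Pim1 at 1.18 and Maff at 0.684. In PBS hippocampi the order changed: Vgf, a secreted neuropeptide precursor, came first at 67.9 CPM per kilobase, followed by Jun at 46.0, Arc at 45.3 and Egr1 at 35.5. Differences between neighbours in these orders were not tested.

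Values per library follow in order of mouse number, which is 14, 32, 33, 38 and 74 for PBS, 10, 11, 15, 37 and 75 for pCtrl (no hippocampus of mouse 11) and 8, 9, 16 and 17 for α-IgLON5#1. Fos encodes a subunit of the AP-1 transcription factor. Fos in the cortices was at 78.5, 107, 111, 45.5 and 34.4 CPM in PBS, 130, 234, 111, 86.5 and 142 CPM in pCtrl and 99.5, 96.5, 57.0 and 132 CPM in α-IgLON5#1 mice. The hippocampi held 28, 29.4, 25.4, 19.6 and 16.3 CPM of Fos in PBS, 50.9, 39.7, 36.9 and 43.9 CPM in pCtrl and 32.1, 16.3, 23.1 and 47.1 CPM in α-IgLON5#1 mice. The groups overlapped in the cortex, and in the hippocampus every pCtrl value lay above every PBS value, as for Nr4a1 but no other member (1.87% of all tested genes). Fos did not pass the test in α-IgLON5#1 against pCtrl mice in the hippocampus (log2 fold change -0.52 ± 0.345 SE, edgeR adjusted p = 0.405) or in the cortex (log2 fold change -0.54 ± 0.319 SE, edgeR adjusted p = 0.437), and in PBS mice it was lower in the hippocampus (log2 fold change -1.66 ± 0.312 SE, edgeR adjusted p = 0.000194). Fosb encodes a related subunit with a more stable splice form that builds up with repeated activity. Fosb in the cortices was at 81.2, 49.5, 68.2, 36.3 and 16.9 CPM in PBS, 77.6, 88.2, 77.2, 74.8 and 49.5 CPM in pCtrl and 29.1, 38.2, 73.5 and 60.4 CPM in α-IgLON5#1 mice. The hippocampi held 20.6, 15.6, 16.7, 14.7 and 9.16 CPM of Fosb in PBS, 23.3, 21.4, 19.9 and 19.6 CPM in pCtrl and 10.8, 11.7, 19.7 and 19.6 CPM in α-IgLON5#1 mice. No treatment group stood clear of the others. Fosb had a log2 fold change of -0.43 ± 0.341 (SE, edgeR adjusted p = 0.499) in α-IgLON5#1 against pCtrl hippocampi and a log2 fold change of -0.54 ± 0.31 (SE, edgeR adjusted p = 0.424) in the cortices, and was lower in PBS hippocampus than in PBS cortex (log2 fold change -1.72 ± 0.305 SE, edgeR adjusted p = 9.68e-05).

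Egr1 (Zif268) and Egr2 encode zinc-finger factors induced through SRF. Egr1 in the cortices was at 1060, 574, 712, 486 and 221 CPM in PBS, 965, 993, 923, 869 and 620 CPM in pCtrl and 393, 556, 850 and 671 CPM in α-IgLON5#1 mice. The hippocampi held 198, 162, 197, 145 and 93.9 CPM of Egr1 in PBS, 331, 215, 307 and 196 CPM in pCtrl and 134, 132, 209 and 214 CPM in α-IgLON5#1 mice. The highest hippocampal values belonged to pCtrl mice 10 and 37, whose hippocampi also had the highest tissue scores. Egr1 gave a log2 fold change of -0.61 ± 0.316 (SE, edgeR adjusted p = 0.267) in α-IgLON5#1 against pCtrl hippocampi and a log2 fold change of -0.50 ± 0.3 (SE, edgeR adjusted p = 0.448) in the cortices, and the tissue difference of the PBS mice was a log2 fold change of -1.94 ± 0.291 (SE, edgeR adjusted p = 1.17e-05). Egr2 in the cortices was at 57.5, 46.0, 58.0, 19.9 and 5.88 CPM in PBS, 87.6, 120, 68.9, 67.7 and 55.0 CPM in pCtrl and 27.6, 48.3, 45.1 and 53.4 CPM in α-IgLON5#1 mice. The hippocampi held 8.36, 6.02, 6.63, 3.29 and 1.72 CPM of Egr2 in PBS, 9.32, 9.49, 7.61 and 8.18 CPM in pCtrl and 5.41, 5.29, 7.02 and 10.9 CPM in α-IgLON5#1 mice. Every α-IgLON5#1 cortex lay below every pCtrl cortex for Egr2, as for Egr4 and Dusp6 (3 of 38 members, beside 2.65% of all tested genes), while PBS mouse 74 was the lowest of all in both tissues. The cortical comparison did not pass the test (log2 fold change -0.87 ± 0.414 SE, edgeR adjusted p = 0.314), nor did the hippocampal one (log2 fold change -0.24 ± 0.48 SE, edgeR adjusted p = 0.821). Egr2 had the widest gap between tissues of all 38 members (log2 fold change -2.86 ± 0.434 SE, edgeR adjusted p = 1.39e-05).

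Npas4 encodes a neuron-restricted factor that responds to calcium influx and regulates inhibitory synapses, and Nr4a1 encodes an orphan nuclear receptor. Npas4 in the cortices was at 38.6, 93.0, 59.0, 41.5 and 62.5 CPM in PBS, 52.7, 116, 56.0, 36.5 and 71.9 CPM in pCtrl and 73.2, 44.5, 42.1 and 68.7 CPM in α-IgLON5#1 mice. The hippocampi held 13.2, 27.5, 17.9, 22.2 and 18.7 CPM of Npas4 in PBS, 28, 23.9, 21.8 and 25.7 CPM in pCtrl and 26.3, 9.97, 15.7 and 22.1 CPM in α-IgLON5#1 mice. The groups overlapped in both tissues. Npas4 gave a log2 fold change of -0.42 ± 0.316 (SE, edgeR adjusted p = 0.474) in α-IgLON5#1 against pCtrl hippocampi, a log2 fold change of -0.22 ± 0.288 (SE, edgeR adjusted p = 0.786) in the cortices and a log2 fold change of -1.56 ± 0.28 (SE, edgeR adjusted p = 0.000115) between PBS hippocampus and cortex. Nr4a1 in the cortices was at 276, 228, 279, 126 and 87.8 CPM in PBS, 361, 542, 351, 262 and 332 CPM in pCtrl and 172, 263, 187 and 303 CPM in α-IgLON5#1 mice. The hippocampi held 87.0, 83.1, 95.8, 67.0 and 51.9 CPM of Nr4a1 in PBS, 140, 104, 98.9 and 120 CPM in pCtrl and 70.8, 80.2, 66.2 and 127 CPM in α-IgLON5#1 mice. In the hippocampus each pCtrl mouse was above each PBS mouse for Nr4a1. Its changes in α-IgLON5#1 against pCtrl mice did not pass the test in the hippocampus (log2 fold change -0.43 ± 0.292 SE, edgeR adjusted p = 0.423) or the cortex (log2 fold change -0.67 ± 0.277 SE, edgeR adjusted p = 0.219), and it was lower in PBS hippocampus (log2 fold change -1.37 ± 0.264 SE, edgeR adjusted p = 0.000254).

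Dusp1 encodes a phosphatase that switches MAP kinases off and is part of the feedback on the pathway that induces it. Other annotated genes overlap its locus, on the same and on the opposite strand, so that its counts may be shared. Dusp1 in the cortices was at 63.0, 91.8, 100, 38.3 and 39.9 CPM in PBS, 94.5, 184, 79.3, 49.2 and 132 CPM in pCtrl and 79.7, 85.4, 50.2 and 114 CPM in α-IgLON5#1 mice. The hippocampi held 18.1, 30.0, 34.2, 29.5 and 19.1 CPM of Dusp1 in PBS, 46.5, 30.4, 31.6 and 49.4 CPM in pCtrl and 30.7, 23.3, 18.7 and 53.1 CPM in α-IgLON5#1 mice. The treatment groups overlapped in both tissues. Dusp1 gave a log2 fold change of -0.32 ± 0.37 (SE, edgeR adjusted p = 0.669) in α-IgLON5#1 against pCtrl hippocampi and a log2 fold change of -0.38 ± 0.342 (SE, edgeR adjusted p = 0.653) in the cortices, and was lower in PBS hippocampus (log2 fold change -1.35 ± 0.332 SE, edgeR adjusted p = 0.00296).

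Arc and Homer1 act at the excitatory synapse: Arc promotes removal of AMPA receptors, and Homer1 links glutamate receptors to intracellular calcium stores, with a short activity-induced form that the gene counts do not separate from the long ones. Arc in the cortices was at 571, 448, 568, 204 and 153 CPM in PBS, 717, 1010, 593, 376 and 613 CPM in pCtrl and 331, 458, 407 and 611 CPM in α-IgLON5#1 mice. The hippocampi held 202, 164, 163, 95.7 and 68.7 CPM of Arc in PBS, 292, 190, 156 and 183 CPM in pCtrl and 136, 183, 137 and 232 CPM in α-IgLON5#1 mice. PBS mice 38 and 74 were the lowest in both tissues. Arc gave a log2 fold change of -0.25 ± 0.363 (SE, edgeR adjusted p = 0.739) in α-IgLON5#1 against pCtrl hippocampi, a log2 fold change of -0.55 ± 0.346 (SE, edgeR adjusted p = 0.48) in the cortices and a log2 fold change of -1.49 ± 0.331 (SE, edgeR adjusted p = 0.00112) between the tissues of PBS mice. Homer1 in the cortices was at 550, 269, 341, 326 and 170 CPM in PBS, 497, 306, 461, 512 and 190 CPM in pCtrl and 174, 241, 650 and 277 CPM in α-IgLON5#1 mice. The hippocampi held 189, 136, 125, 118 and 120 CPM of Homer1 in PBS, 165, 168, 176 and 112 CPM in pCtrl and 92.9, 108, 195 and 108 CPM in α-IgLON5#1 mice. Mouse 16 was highest within α-IgLON5#1 and mouse 14 within PBS, in both tissues. Homer1 gave a log2 fold change of -0.30 ± 0.353 (SE, edgeR adjusted p = 0.673) in the hippocampal and a log2 fold change of -0.23 ± 0.334 (SE, edgeR adjusted p = 0.806) in the cortical comparison of α-IgLON5#1 with pCtrl, and was lower in PBS hippocampus (log2 fold change -1.27 ± 0.319 SE, edgeR adjusted p = 0.0035).

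Nptx2 encodes a secreted pentraxin that clusters AMPA receptors, and Bdnf a neurotrophin. Nptx2 in the cortices was at 89.2, 61.1, 71.0, 45.1 and 44.2 CPM in PBS, 102, 105, 81.0, 96.8 and 58.6 CPM in pCtrl and 41.4, 47.7, 106 and 57.7 CPM in α-IgLON5#1 mice. The hippocampi held 24.7, 16.5, 15.2, 16.8 and 15.6 CPM of Nptx2 in PBS, 15.2, 19.4, 13.1 and 18.8 CPM in pCtrl and 17.1, 19.9, 22.4 and 14.6 CPM in α-IgLON5#1 mice. Every PBS hippocampus lay below every PBS cortex. Nptx2 gave a log2 fold change of 0.15 ± 0.26 (SE, edgeR adjusted p = 0.793) in α-IgLON5#1 against pCtrl hippocampi, a log2 fold change of -0.49 ± 0.235 (SE, edgeR adjusted p = 0.321) in the cortices and a log2 fold change of -1.81 ± 0.231 (SE, edgeR adjusted p = 1.23e-06) between PBS tissues. Bdnf in the cortices was at 59.1, 32.2, 44.2, 29.6 and 25.4 CPM in PBS, 59.8, 52.9, 52.0, 53.9 and 34.2 CPM in pCtrl and 26.7, 30.9, 63.1 and 38.3 CPM in α-IgLON5#1 mice. The hippocampi held 48.8, 44.3, 35.0, 24.8 and 50.2 CPM of Bdnf in PBS, 31.9, 35.6, 26.8 and 44.4 CPM in pCtrl and 36.1, 36.2, 33.7 and 41.9 CPM in α-IgLON5#1 mice. The groups of Bdnf overlapped throughout, between tissues as well as treatments. It gave a log2 fold change of 0.09 ± 0.256 (SE, edgeR adjusted p = 0.878) for the hippocampal comparison with pCtrl, a log2 fold change of -0.34 ± 0.242 (SE, edgeR adjusted p = 0.538) for the cortical one and a log2 fold change of 0.10 ± 0.228 (SE, edgeR adjusted p = 0.82) for hippocampus against cortex of PBS mice.

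**Figure D2:**
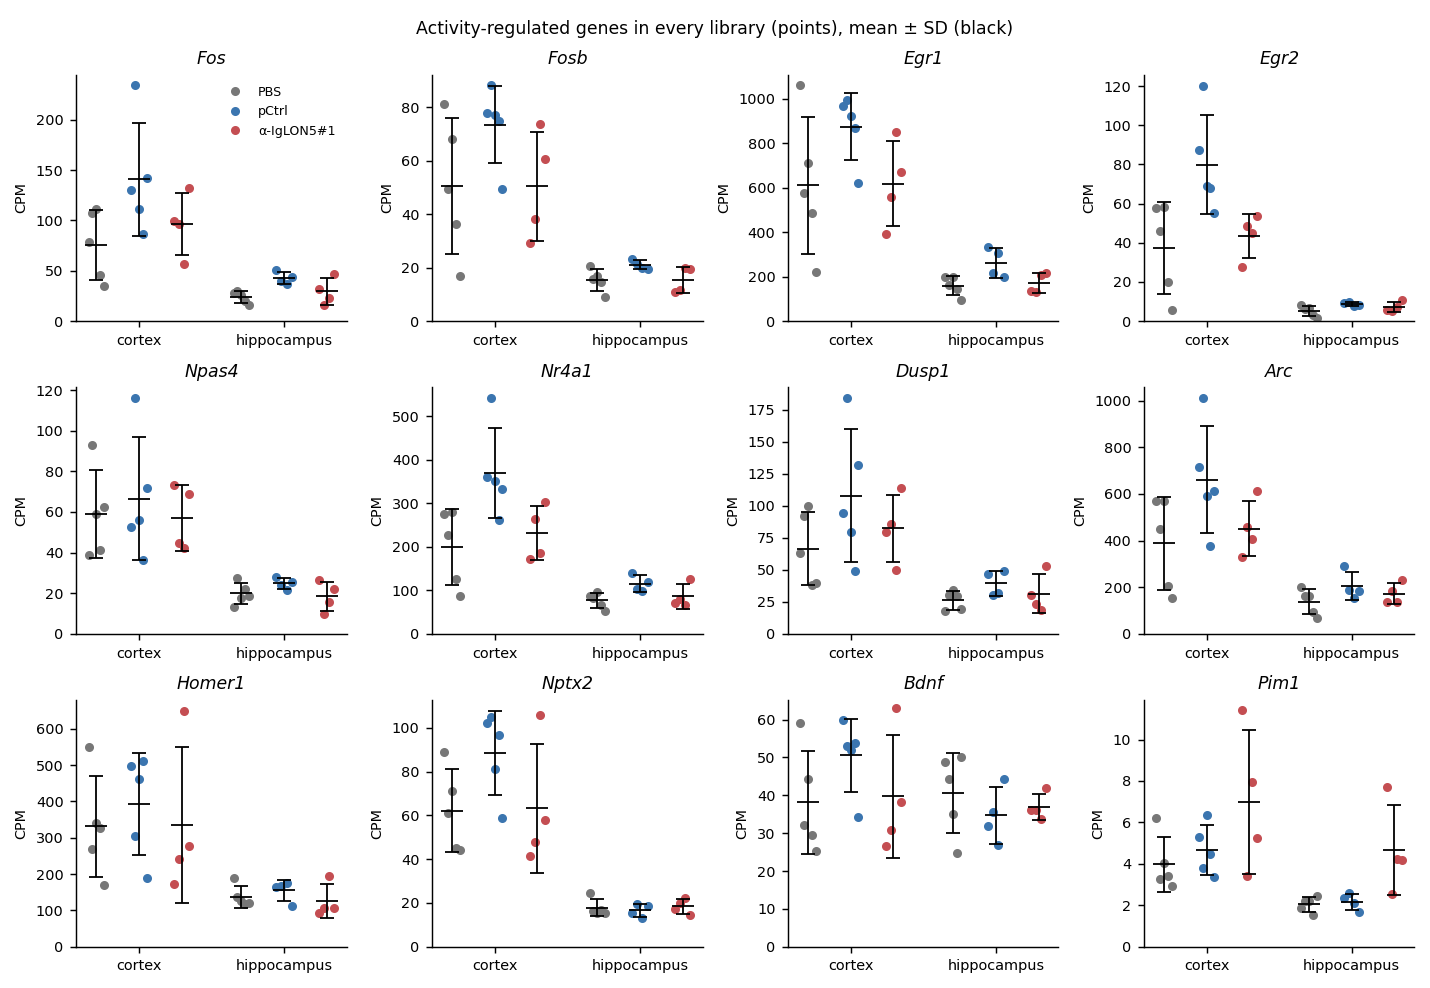
Level in CPM (y axis, from 0) of 12 members in every library, with cortex on the left and hippocampus on the right of each panel, grey points for PBS, blue for pCtrl and red for α-IgLON5#1, and mean ± SD in black. Fos in PBS mice was at 75.3 ± 34.9 CPM in the cortex (n = 5) and 23.7 ± 5.6 CPM in the hippocampus (n = 5), and Pim1 in the hippocampus was at 4.67 ± 2.19 CPM in α-IgLON5#1 mice (n = 4) and 2.18 ± 0.387 CPM in pCtrl mice (n = 4).

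Pim1, a short-lived serine/threonine kinase that cytokines also induce, was the only member called in any treatment comparison. Pim1 in the cortices was at 6.23, 3.28, 4.03, 3.40 and 2.94 CPM in PBS, 5.29, 3.78, 6.36, 4.49 and 3.36 CPM in pCtrl and 11.4, 3.39, 7.95 and 5.25 CPM in α-IgLON5#1 mice. The hippocampi held 1.88, 2.20, 2.20, 1.54 and 2.47 CPM of Pim1 in PBS, 2.35, 2.58, 2.12 and 1.67 CPM in pCtrl and 7.73, 2.54, 4.23 and 4.18 CPM in α-IgLON5#1 mice. In the hippocampus every α-IgLON5#1 value lay above every PBS value, as in 4.49% of all tested genes, while mouse 9, at 2.54 CPM, fell just below the highest pCtrl value. Pim1 was up-regulated in α-IgLON5#1 hippocampi against pCtrl (log2 fold change 1.09 ± 0.318 SE, edgeR adjusted p = 0.036) and against PBS (log2 fold change 1.17 ± 0.302 SE, edgeR adjusted p = 0.0202). The cortical differences did not pass the test, with a log2 fold change of 0.58 ± 0.286 (SE, edgeR adjusted p = 0.334) against pCtrl and a log2 fold change of 0.82 ± 0.287 (SE, edgeR adjusted p = 0.193) against PBS. Mouse 8 carried much of the hippocampal value: without it the log2 fold change was 0.76 against pCtrl (adjusted p = 0.201, edgeR) and 0.84 against PBS (adjusted p = 0.189, edgeR). Against pCtrl the call was also lost without pCtrl mouse 10, 37 or 75 (adjusted p = 0.0778, 0.111 and 0.0833, edgeR), and with mice 10 and 37 both left out the log2 fold change was 1.13 (adjusted p = 0.28, edgeR). The call against pCtrl was also lost when the 2 groups were fitted alone (adjusted p = 0.0995, edgeR) and among mice 8 to 17 alone (adjusted p = 0.435, edgeR). Gene Gm26885 overlaps Pim1 on the opposite strand. Markers of microglia and macrophages, 8 of 8 genes detected, moved with the comparison and summed to 454, 813, 609 and 438 CPM in the hippocampi of α-IgLON5#1 mice 8, 9, 16 and 17, beside 244 to 312 CPM in the 9 others. The mean of 7 of the 8 was higher in α-IgLON5#1 than in both control groups, and that of P2ry12, a marker of resting microglia, was lower, at 30.1 CPM beside 37.6 CPM in PBS and 39.1 CPM in pCtrl mice. The sum of 5 B and plasma cell markers was at 59.1, 6.31, 43.0 and 87.2 CPM in these 4 hippocampi and 0.754 to 1.75 CPM in the others. The part of these cells in the level of Pim1 was not tested.

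In α-IgLON5#1 against pCtrl hippocampi, 1 of 38 members was called, beside 7.01% of all tested genes, and in α-IgLON5#1 against PBS hippocampi 1 of 38, beside 4.29%. DESeq2 called 1 member in each. The comparisons share the α-IgLON5#1 samples. In the first, 26 members had values below and 12 above pCtrl, with a median log2 fold change of -0.22 beside 0.001 over all genes, and in the second 28 of 38 were above PBS, with a median of 0.14 beside -0.007. Neuron markers moved with the first: the values of 5 of 5 markers of dentate gyrus granule cells were higher (median log2 fold change of 0.70, 0 called), with sums of 308 to 447 CPM in α-IgLON5#1 and 118 to 385 CPM in pCtrl hippocampi. Those of 5 of 6 cortical neuron markers were lower (median -0.48, Tbr1 called), with sums of 244 to 352 CPM and 316 to 460 CPM, and those of 6 of 8 general neuron markers were lower (median -0.15, Tubb3 called), with sums of 6370 to 6940 CPM and 6860 to 7780 CPM. With the tissue score as a covariate 20 of 38 members were above pCtrl in value, in place of 12. Against PBS, 6 of 8 general neuron markers were lower in value (median -0.13, Gad2 called), with sums of 6370 to 6940 CPM beside 6730 to 7610 CPM. Markers of dentate granule cells and cortical neurons had medians of 0.025 and -0.008 there, with 0 called. The part of neuron content in the members' values was not tested. With Pim1, Trib1 made 2 of 38 members with every α-IgLON5#1 hippocampus above every PBS one, beside 4.49% of all tested genes, and Egr4 and Klf10 were the 2 of 38 with every α-IgLON5#1 hippocampus below every pCtrl one, beside 4.97%. Shares of this size were near those of all genes, and Trib1, Egr4 and Klf10 did not pass the test (adjusted p = 0.482, 0.253 and 0.432, edgeR). Nr4a2, a nuclear receptor of the same family as Nr4a1, came nearest to a call among the lower members against pCtrl (log2 fold change -0.80 ± 0.265 SE, edgeR adjusted p = 0.066), with a log2 fold change of -0.00 ± 0.252 (SE, edgeR adjusted p = 0.997) against PBS. It was called against pCtrl without α-IgLON5#1 mouse 16 and without pCtrl mouse 75.

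No member was called in the cortex. In α-IgLON5#1 against pCtrl cortices edgeR called 0 of 38 members (3.46% of all genes) and DESeq2 also 0, while 10 were lower at an unadjusted p under 0.05, a condition that 6.97% of all genes met. In all 33 of 38 were below pCtrl, with a median log2 fold change of -0.40 beside -0.007 over all genes. Markers of cortical neurons moved with this comparison: 6 of 6 were lower in value, with a median log2 fold change of -0.37 and Rorb called, and their sum was 614 to 889 CPM in α-IgLON5#1 and 760 to 1050 CPM in pCtrl cortices. Microglia and macrophage markers summed to 423 to 524 CPM and 268 to 332 CPM in the same groups, and their part in the members' values was not tested. Omitting the cortex of α-IgLON5#1 mouse 8 took the count of members lower at an unadjusted p under 0.05 from 10 to 1 and omitting that of mouse 16 took it to 15, while omission of pCtrl mouse 10 or 11 gave 5 and 4, and the tissue score as a covariate gave 3, with 5 of 38 above pCtrl in value as without it. In α-IgLON5#1 against PBS cortices both tools called 0 members (3.05% of all genes by edgeR). In value 29 of 38 were above PBS, the opposite direction to that against pCtrl, with a median log2 fold change of 0.17 beside -0.02 over all genes, and 3 were higher at an unadjusted p under 0.05, as were 1262 of all 20271 genes. Oligodendrocyte markers summed to 2010 to 2450 CPM in α-IgLON5#1 and 2380 to 3200 CPM in PBS cortices. Sums of cortical neuron markers were 614 to 889 and 644 to 872 CPM, and those of microglia and macrophages 423 to 524 and 275 to 291 CPM. Their part in the members' values was not tested. The lowest adjusted p of a member was 0.126 (edgeR), for Egr4 against pCtrl. The test of whether the α-IgLON5#1 and pCtrl difference itself varied between the tissues called 0 members by either tool (0.0% of all genes by edgeR), with 1 member, Nr4a2, and 1132 of all genes lower at an unadjusted p under 0.05 (for Nr4a2 log2 fold change -0.90 ± 0.363 SE, edgeR adjusted p = 0.353). With the mouse as a block in a paired fit the count was likewise 0.

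The control antibody alone was set against PBS in both tissues. In the cortex edgeR and DESeq2 called 0 members and edgeR 0.0% of all genes. In value 37 of 38 members were higher in the pCtrl mice, with a median log2 fold change of 0.53 beside -0.003 over all genes. Many members varied together between the same cortices (Pearson r of 0.981 for Fosb and Egr1 and 0.977 for Fos and Junb), though not all (-0.681 for Btg2 and Homer1). Counts of members are therefore not counts of separate observations. Of the cortical neuron markers 5 of 6 had higher values in pCtrl (median log2 fold change of 0.27), with sums of 760 to 1050 CPM beside 644 to 872 CPM in PBS, and 5 of 5 oligodendrocyte markers had lower ones (median -0.26), with sums of 1490 to 3020 CPM beside 2380 to 3200 CPM. The part of the oligodendrocyte markers in the members' values was not tested. At an unadjusted p under 0.05, 18 of the 38 members were higher, where 3.84% of all genes were. Leaving out 1 library at a time gave between 14 (without PBS mouse 38 or 74, or without pCtrl mouse 11) and 28 (without PBS mouse 14) such members. The tissue score moved with the groups, at 2.0 to 2.47 in pCtrl and 1.66 to 2.16 in PBS cortices, and with the score as a covariate 16 of the 38 were higher at this limit and 37 in value. Egr2, Fos, Nr4a1 and Tiparp had the widest differences, with log2 fold changes of 1.09, 0.90, 0.89 and 0.88 and adjusted p values of 0.459, 0.436, 0.399 and 0.399 (edgeR).

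In the hippocampus edgeR and DESeq2 called 0 members between pCtrl and PBS (0.192% of all genes by edgeR), and 7 were higher at an unadjusted p under 0.05, beside 7.0% of all genes. In value 33 of 38 were above PBS. Of the markers, 5 of 5 of dentate granule cells were lower (median log2 fold change -0.60) and 5 of 6 of cortical neurons higher (median 0.43), with 0 called. Their part in the members' values was not tested. The hippocampi of pCtrl mice 10 and 37 stood towards cortex in their tissue scores. Leaving out 1 library gave 3 (without pCtrl mouse 10) to 9, with 4 without PBS mouse 74, and a fit of the 2 groups alone gave 19. Without pCtrl mice 10 and 37 only pCtrl mice 15 and 75 remained, so that a lower count may come from the smaller group alone. In that fit 0 members were higher at that limit, with 36 of 38 above PBS in value. With the tissue score as a covariate 0 were higher, with 25 of 38 above PBS in value. The comparison of α-IgLON5#1 with pCtrl hippocampi rests on the same pCtrl libraries. Fitted with the score, 0 members were called between α-IgLON5#1 and pCtrl hippocampi, Pim1 having a log2 fold change of 1.23 (adjusted p = 0.177, edgeR).

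**Figure D3:**
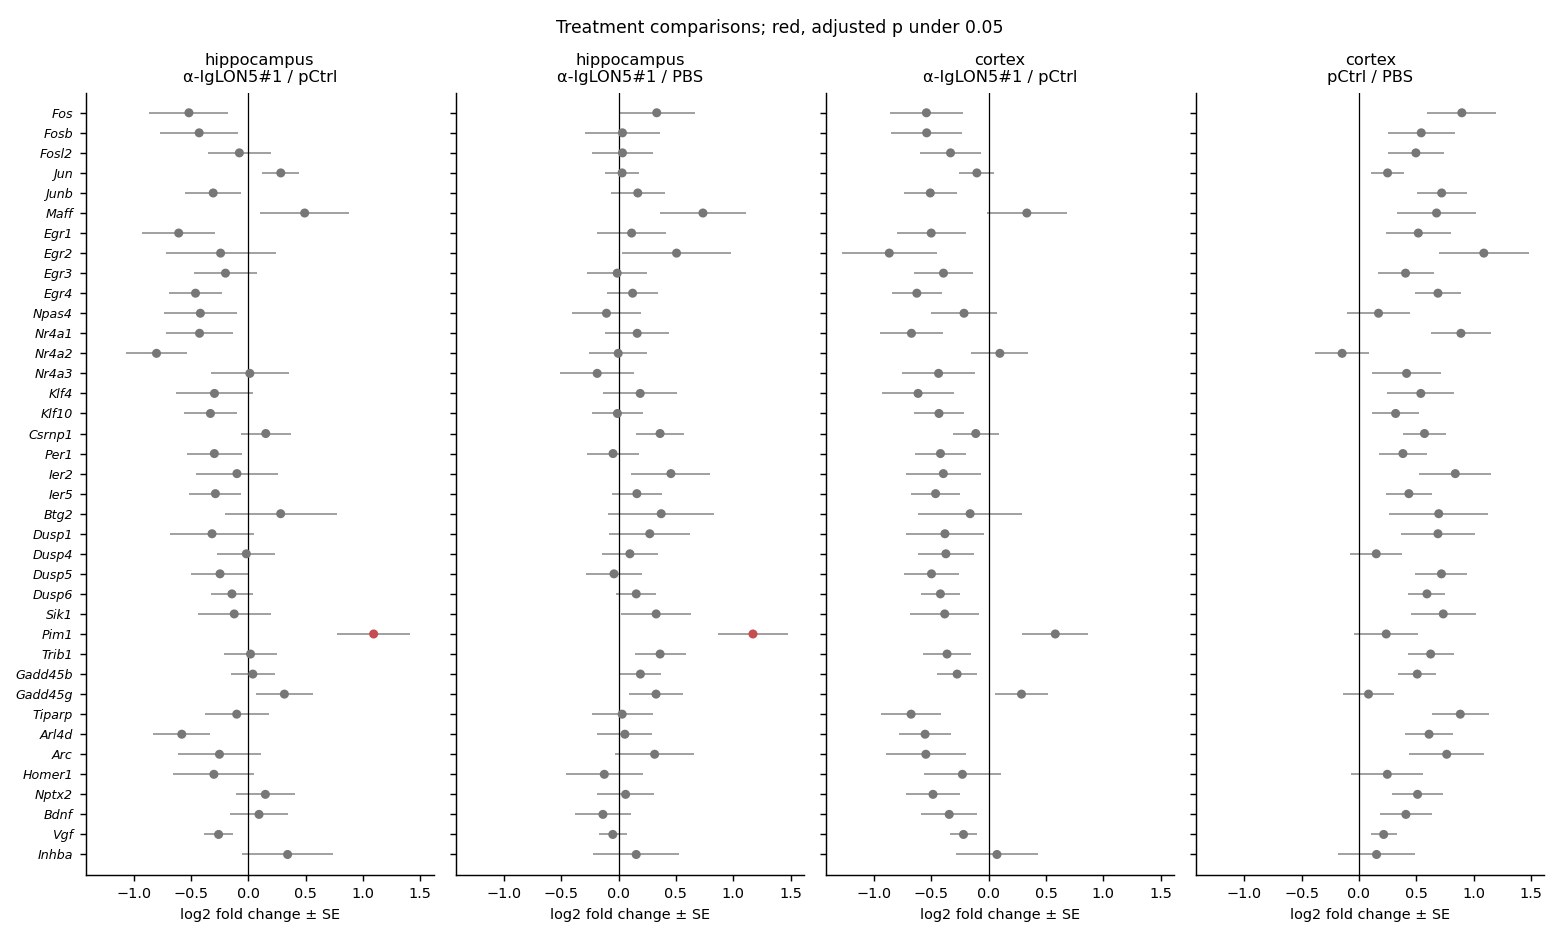
Log2 fold changes (x axis, points, with SE as lines) of the 38 members (y axis) in 4 treatment comparisons, with red points for an adjusted p under 0.05. Pim1 in the 2 hippocampal comparisons, at 1.09 and 1.17, is the only red point, and in cortex 37 of 38 points lie above 0 for pCtrl against PBS.

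The wider pathway was read from lists of genes that are not members. Of 21 genes of upstream activity signalling (CREB and its coactivators, SRF, Mef2 factors, CaM kinases, MAP kinases), 2 were higher and 1 lower in α-IgLON5#1 than in pCtrl hippocampi, where 7.01% of all tested genes were called: Elk1, an SRF partner (log2 fold change 0.34 ± 0.0911 SE, edgeR adjusted p = 0.0227), Camk2b (log2 fold change 0.39 ± 0.108 SE, edgeR adjusted p = 0.0273) and, lower, Mef2c (log2 fold change -0.65 ± 0.176 SE, edgeR adjusted p = 0.0257). All 3 also differed in the same direction between PBS hippocampus and PBS cortex, Elk1 (log2 fold change 0.38 ± 0.0816 SE, edgeR adjusted p = 0.000705) and Camk2b (log2 fold change 0.58 ± 0.0968 SE, edgeR adjusted p = 5.07e-05) being higher and Mef2c lower (log2 fold change -2.07 ± 0.163 SE, edgeR adjusted p = 1.57e-09). The part of the pCtrl hippocampi of mice 10 and 37, with scores towards cortex, in these values was not tested. In the cortex 0 of the 21 were called against pCtrl or PBS.

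Of 22 tested genes on a further list of activity-regulated genes, 2 were higher and 1 lower in α-IgLON5#1 than in pCtrl hippocampi, namely Nptx1, Atf3 and, lower, Rheb, beside the same 7.01% of all tested genes. Nptx1 and Rheb also differed in the same direction between PBS hippocampus and PBS cortex. In that tissue comparison Nptx1 had a log2 fold change of 0.61 ± 0.142 (SE, edgeR adjusted p = 0.00174) and Rheb of -0.16 ± 0.0464 (SE, edgeR adjusted p = 0.00939). Atf3, a stress-induced factor of the CREB family, was higher in α-IgLON5#1 hippocampi against pCtrl (log2 fold change 1.28 ± 0.395 SE, edgeR adjusted p = 0.0483) and PBS (log2 fold change 1.69 ± 0.386 SE, edgeR adjusted p = 0.00687) and in α-IgLON5#1 cortices against PBS (log2 fold change 1.34 ± 0.367 SE, edgeR adjusted p = 0.0405). It was the only called gene of this list in either comparison with PBS. Rgs2, which limits G-protein signalling, was the only one called between α-IgLON5#1 and pCtrl cortices, where it was lower (log2 fold change -0.34 ± 0.0879 SE, edgeR adjusted p = 0.0289).

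Between mice of one group the members varied more than most genes. The SD of log2 CPM within groups had a median of 0.53 over the members in the cortex, beside 0.18 over all tested genes, and all 38 lay above that median and 10 above the 90th percentile. In the hippocampus the median was 0.30 beside 0.19, with 36 of 38 members above it and 1 above the 90th percentile. Btg2, an antiproliferative co-regulator, varied most in the cortex (SD 0.95), followed by Egr2 (0.92), Nr4a3 (0.74) and Homer1 (0.67). Vgf (0.23) and Jun (0.26) varied least there.

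Whether a mouse high for a member in one tissue was high in the other was asked of the deviations from the group mean in the 13 mice with both tissues, by permutation within treatments over all 69120 orders. Of 20271 genes 0 passed an adjusted p of 0.05 (0.0%), so 0 members were called by Pearson or Spearman correlation. At an unadjusted permutation p under 0.05, 27 of 38 members had a positive r, a condition met by 10.4% of all genes, and 37 of 38 had a positive r of any size. The median r was 0.73 over the members and 0.18 over all genes. Arc had r = 0.941 (permutation p = 0.000159, adjusted p = 0.0838) and rho = 0.929 (permutation p = 0.000203, adjusted p = 0.124). Its r was 0.894 without the 2 mice farthest from the median in the cortex. Fosb had r = 0.932 (permutation p = 1.45e-05, adjusted p = 0.0587) and rho = 0.978 (permutation p = 1.45e-05, adjusted p = 0.113). That p is the smallest these orders can give. Btg2 had r = 0.898 (permutation p = 0.000333, adjusted p = 0.0992) and rho = 0.896 (permutation p = 0.000376, adjusted p = 0.143). Homer1 had r = 0.914 (permutation p = 0.00214, adjusted p = 0.164) and rho = 0.907 (permutation p = 0.00288, adjusted p = 0.227). Without the 2 farthest mice r remained 0.846 for Fosb, 0.824 for Btg2 and 0.843 for Homer1. Fos had r = 0.676 (permutation p = 0.0205, adjusted p = 0.321) and rho = 0.78 (permutation p = 0.00786, adjusted p = 0.293). Bdnf had r = -0.119 (permutation p = 0.734, adjusted p = 0.93) and rho = -0.368 (permutation p = 0.259, adjusted p = 0.737). Nptx2 (r = 0.296), Vgf (r = 0.163) and Dusp4 (r = 0.166) also had unadjusted permutation p values above 0.05, at 0.37, 0.665 and 0.657, with rho of 0.11, 0.258 and -0.022. Of the 38 values of r, 35 were positive without the 2 mice farthest from the median. Those of Inhba (r = 0.539, unadjusted permutation p = 0.0495, rho = 0.379, permutation p = 0.196) and Jun (r = 0.575, permutation p = 0.0655, rho = 0.418, permutation p = 0.187) rested on those mice, at -0.0303 without mice 14 and 16 and at 0.0562 without mice 16 and 37. That of Pim1 (r = 0.696, permutation p = 0.0492, adjusted 0.417, and rho = 0.478, permutation p = 0.155, adjusted 0.642) was 0.217 without mice 8 and 9, and that of Nptx2 went from 0.296 to -0.424 without mice 14 and 16. With the tissue score regressed out within each tissue, 23 of 38 members had a positive r at an unadjusted permutation p under 0.05.

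**Figure D4:**
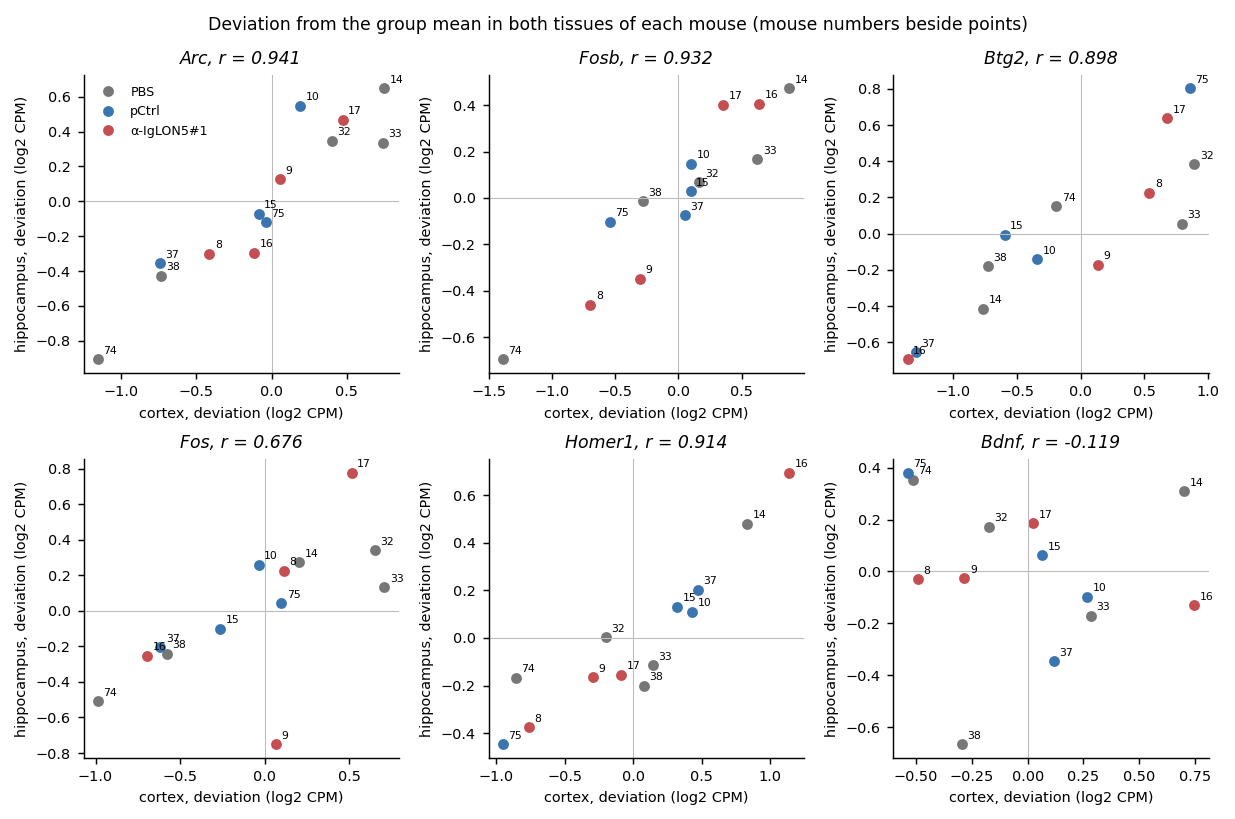
Deviation of log2 CPM from the group mean in the cortex (x axis) and hippocampus (y axis) of the same mouse for 6 members, 1 point for each of 13 mice, coloured by treatment and marked with the mouse number. Points of Arc (r = 0.941), Fosb (r = 0.932) and Btg2 (r = 0.898) run along a rising line, and those of Bdnf (r = -0.119) do not.

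The members did not all vary with Fos. Among the 14 cortices, deviations of each gene were set against those of Fos by permutation within treatments over 345600 orders, with 20270 other genes tested. No gene passed an adjusted p of 0.05 (0 members, 0.0% of all), and 19 of 37 members had a positive r at an unadjusted permutation p under 0.05, as did 2.35% of all genes. Ranked by r, the 6 genes nearest to Fos of all 20270 were members, Junb, Dusp1, Arl4d, Jun, Gadd45b and Csrnp1, and 10 of the nearest 20 were. In the cortex Junb had r = 0.977 (permutation p = 2.03e-05, adjusted p = 0.137) and rho = 0.925 (permutation p = 0.000255, adjusted p = 0.486). In the cortex Dusp1 had r = 0.948 (permutation p = 2.89e-05, adjusted p = 0.147) and rho = 0.925 (permutation p = 6.94e-05, adjusted p = 0.235). In the cortex Arl4d had r = 0.933 (permutation p = 9.55e-05, adjusted p = 0.194) and rho = 0.89 (permutation p = 0.000451, adjusted p = 0.5). Junb and Jun encode partners of Fos in AP-1, and Arl4d encodes a small GTPase. Junb had an r of 0.969, Dusp1 of 0.964 and Arl4d of 0.923 without mice 16 and 74, the farthest from the median of Fos. Nr4a1, Ier2, Arc and Trib1 followed, with r of 0.883, 0.879, 0.869 and 0.858, unadjusted permutation p of 0.000903, 8.1e-05, 0.00145 and 0.000972 and rho of 0.842, 0.908, 0.842 and 0.833.

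Of the 37 members, 5 had a negative r with Fos, and without PBS mouse 74 only 23 had a positive one. In the cortex Homer1 had r = -0.155 (permutation p = 0.615, adjusted p = 0.999) and rho = -0.196 (permutation p = 0.527, adjusted p = 1). In the cortex Egr3 had r = 0.13 (permutation p = 0.709, adjusted p = 0.999) and rho = 0.187 (permutation p = 0.568, adjusted p = 1). Inhba, which encodes a subunit of activin, had r = -0.333 and rho = -0.279 (unadjusted permutation p = 0.261 and 0.338). Whether members differed from each other in r with Fos was not tested, and the mice below were picked from these same values. The cortex of α-IgLON5#1 mouse 16 had the highest Homer1, Nptx2, Bdnf, Egr1 and Fosb of its group and the lowest Fos, Junb, Dusp1, Npas4 and Btg2. Over all cortices Fosb and Egr1 had an r of 0.458 and 0.414 with Fos. PBS mouse 14 likewise had the highest Homer1, Nptx2, Bdnf, Egr1 and Fosb and the lowest Npas4 and Btg2 of the PBS cortices, with Fos in the middle of the 5. pCtrl mouse 75 lay the other way, with the lowest Homer1, Nptx2, Bdnf, Egr1 and Fosb of its group and the second highest Fos, Dusp1, Npas4 and Btg2. In tissue score the cortices of mice 16 and 14 were the highest of their groups, at 2.245 and 2.159, and that of mouse 75 the lowest, at 1.996. The part of tissue make-up in these values was not tested.

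**Figure D5:**
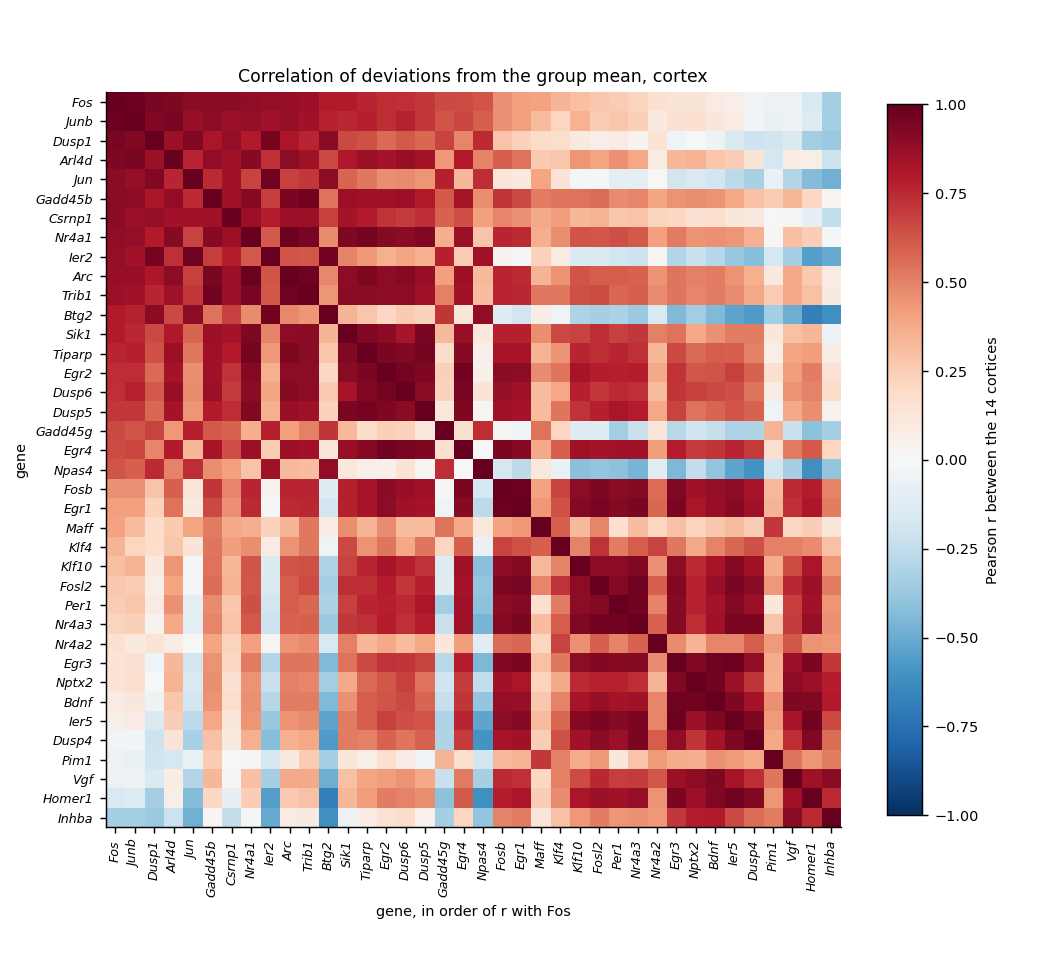
Pearson r (colour, blue for -1 to red for 1) between deviations from the group mean of the 38 members in the 14 cortices, with the genes in order of their r with Fos on both axes. A red block from Fos to Trib1 at the upper left and another around Egr3, Bdnf and Homer1 at the lower right are joined by genes such as Egr2 and Egr4, which are red in both, while Btg2 and Homer1 meet in blue.

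The same relation was computed in the 13 hippocampi. Of 20270 genes 0 passed an adjusted permutation p of 0.05 (0.0%), 6 of 37 members had a positive r at an unadjusted p under 0.05, beside 2.27% of all genes, and 0 of the 20 genes of highest r were members. In the hippocampus Nr4a1 had r = 0.756 (permutation p = 0.0141, adjusted p = 0.979) and rho = 0.714 (permutation p = 0.0258, adjusted p = 1). In the hippocampus Junb had r = 0.747 (permutation p = 0.0179, adjusted p = 0.979) and rho = 0.758 (permutation p = 0.013, adjusted p = 1). Without mice 9 and 17, the farthest from the median of Fos, r was 0.815 for Nr4a1 and 0.794 for Junb. The count of 6 was 12 with library totals in place of TMM, 10 with the tissue score regressed out, and 2 without PBS mouse 74 or α-IgLON5#1 mouse 17. A difference in these relations between the tissues was not tested.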

How the data were processed

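RNA-seq counts per gene were analysed for 27 mouse libraries in 6 groups of tissue and treatment. Per the study's methods, reads were aligned to GRCm38 with STAR, and the authors deposited whole-number counts per gene, not normalized; the counting program, its strand setting and the annotation release are not given in the sources used here. Totals ranged from 19385642 to 58550621 counts, and 0 columns were left unused. A gene was kept if 4 or more libraries had 10 or more counts, which left 20271 genes. Groups were compared by the quasi-likelihood test of edgeR 4.0.16 under R 4.3.3, with TMM scaling and 1 fit over all 6 groups, and p-values were adjusted by the Benjamini-Hochberg method over all tested genes, with calls at an adjusted p under 0.05. DESeq2 1.42.0 was an alternative. CPM are counts scaled to the TMM-adjusted library total, and log2 CPM used a prior count of 1. The steps were tested on simulated data.

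The 38 members, the pathway and marker lists and the tests were chosen with earlier results of these data known. Every member was named, and values in every library were given for 11 members fixed by name and for members called in a treatment comparison. Relations between mice used deviations from group means with two-sided exact permutation within groups. They were adjusted over all tested genes, in place of over the members as first planned. Overlaps of genes were read from GENCODE M21. Libraries are named by the mouse numbers in their titles, which join the tissues of 13 mice: the correlation of their deviations over all tested genes ran from -0.0498 to 0.443 (median 0.194) and was above 0.1 in 8 of 13. All α-IgLON5#1 mice were numbered between 8 and 17, and what these numbers stand for is not stated. Of the controls, PBS mouse 14 and pCtrl mice 10, 11 and 15 fell in this range. PBS mice 32, 33, 38 and 74 and pCtrl mice 37 and 75 fell outside it. Any difference that goes with the numbers can thus hardly be told apart from treatment in the comparison with PBS. Samples were separate mice within a tissue. All members were read in the same mice and many varied together, so that a count of members in any comparison is not a count of separate observations. Alternatives were other scalings, count filters, a fold above 2, fits of the compared groups alone, the tissue score as a covariate, mice 8 to 17 alone, the mouse as a block and each library left out. The joint omission of 2 hippocampi and the alternatives of the relations other than scaling and prior count were chosen after seeing the data. Values of 2 genes of the pathway and marker lists are not reported here.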

Additional observations from a re-analysis of the deposited data

Results flagged for a closer look

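Among 72 sets of libraries (12 members in each of the 6 groups), 3 held a library whose gap to its nearest neighbour was a larger share of the whole range than Dixon's 95% critical value. Chance alone gives about 1 such set in 20, so that 3 of 72 is no more than chance would give. In PBS hippocampi, mouse 14 had 24.7 CPM of Nptx2, with the nearest at 16.8 CPM, a gap of 0.827 of the range beside a critical value of 0.71. The same hippocampus had 189 CPM of Homer1, with the nearest at 136 CPM and a gap of 0.747 of the range. In α-IgLON5#1 hippocampi, mouse 16 had 195 CPM of Homer1, with the nearest at 108 CPM and a gap of 0.849 of the range beside a critical value of 0.829. Homer1 overlaps Gm47075 and Gm47088 on its own strand, and its counts may hold their reads. Both mice also had the highest Homer1 of their group in the cortex, at 550 and 650 CPM.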

How the results depend on the processing

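The count of 1 member called between α-IgLON5#1 and pCtrl hippocampi was 2 without a count filter. It was 0 with only the compared groups, with the tissue score as a covariate, among mice 8 to 17 alone and without pCtrl mice 10 and 37. The cause was not tested, but all of these fits that gave 0, except that with the score, hold fewer samples. Leaving out 1 library gave 0 to 2 there (Nr4a2 in place of Pim1 without pCtrl mouse 75), 0 to 1 against PBS in the hippocampus, 0 to 2 in the cortex against pCtrl (2, Nptx2 and Vgf, without α-IgLON5#1 mouse 16) and 0 to 1 in the cortex against PBS (Pim1 without α-IgLON5#1 mouse 9, Csrnp1 without PBS mouse 33). The 6 members related to Fos at an unadjusted permutation p under 0.05 in the hippocampus became 12 with library totals, 10 with the tissue score regressed out and 2 to 9 with 1 mouse left out. With the mouse as a replicate block, the paired fits called 30 members between PBS tissues (26 without the block) and 0 in the interaction. Of 447 alternatives for single genes, 425 kept direction and call, 22 lost the call and 0 turned direction. They pool 28 main values, 26 of them from the tissue comparison of PBS mice and the others of Pim1 in the hippocampus. The call of Pim1 against pCtrl was lost in 4 of 8 fits with 1 library left out, and in each alternative named above that called 0 members. The lowest count of a member was 15, so low counts bear on Maff more than on the others, and the number of mice limits all comparisons.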
